A study of Mus musculus with 29 samples.

Results

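The peritoneum of mice treated with anti-PD1 alone was set against that of mice cured by dual ICI (anti-PD1 plus anti-CTLA4) at 5wk, day 35, of the YTN16 peritoneal dissemination model of gastric cancer. The comparison holds 8 of the 29 RNA-seq libraries of the series, chosen by their titles, with all genes of the table: 5 libraries of anti-PD1 mice and 3 of dual ICI mice, replicates 2, 3 and 4. Every mouse was a C57BL/6J female of 5 to 6 weeks at the start and had been injected in the abdominal cavity with YTN16, a mouse gastric cancer line. Anti-PD1 was given at 10 mg/kg in both groups, and the dual ICI mice also received anti-CTLA4 at 5 mg/kg, so the groups differ in anti-CTLA4 as well as in outcome, and these cannot be told apart. The labels do not say which mice were cured: the numbers in the titles were taken as the mouse numbers of the study, which lists dual ICI mice 2, 3 and 4 as cured. The study also counts a cured mouse among those given anti-PD1 alone, and the labels do not say which library it is.

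PD1 and CTLA4 are inhibitory receptors of T cells, and antibodies against them are given to release T cells against tumor cells. Activated T cells and NK cells secrete IFN-gamma, a cytokine that acts on the cells around them. Its known targets include the T cell attracting chemokines Cxcl9 and Cxcl10, the guanylate-binding proteins (Gbp genes), the immunity-related GTPases (Igtp, Iigp1, Irgm1), PD-L1 (Cd274) and the genes of antigen presentation on MHC class I and class II.

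The labels call all of the samples tumor tissue, but tumor epithelium was found in 4 of the 8. Epcam, an epithelial surface protein, was at 320.6, 344.4, 440.4 and 305.2 CPM (counts scaled to library size, with TMM factors that set the libraries to a common level) in anti-PD1 replicates 1 to 4. Epcam was at 3.72 CPM in anti-PD1 replicate 5 and at 4.80, 0.702 and 0.301 in dual-cured replicates 2, 3 and 4. Replicate 5 thus lay inside the dual-cured range, as it did for the keratin genes Krt8, Krt18 and Krt19. Over the whole list of 30 gastric epithelial genes, the share of a library's counts was 0.446 to 0.604% in anti-PD1 replicates 1 to 4, 0.00608% in replicate 5 and 0.00228 to 0.00939% in the dual-cured libraries. Replicate 5 had been singled out for this absence, so its epithelial values are a description. In log2 CPM over all genes tested, replicate 5 had a correlation of 0.983 to 0.985 with the 3 dual-cured libraries, which share 0.984 to 0.990 among themselves, and of 0.824 to 0.873 with the other 4 anti-PD1 libraries. These coefficients are across genes of libraries that share one tissue type.

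The makeup of the tissue moved with the epithelium. Genes of the contractile apparatus of skeletal muscle took 6.93 to 13.4% of the counts in anti-PD1 replicates 1 to 4, 25.3% in replicate 5 and 25.5 to 27.4% in the dual-cured libraries. Over all 5 anti-PD1 libraries the share was 13.0% ± 7.44 (SD, n = 5), against 26.2% ± 1.01 (SD, n = 3) in the cured ones, a difference of -13.2 percentage points (exact two-sided permutation test, p = 0.0357, the smallest p that 5 against 3 allows). In bulk tissue, fewer cells of a type and less RNA per cell cannot be told apart, and a large share for one tissue lowers the shares of all others. The part of the tissue makeup in each result below was not tested, except where a fit with the muscle score as a covariate is given.

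**Figure D1:**
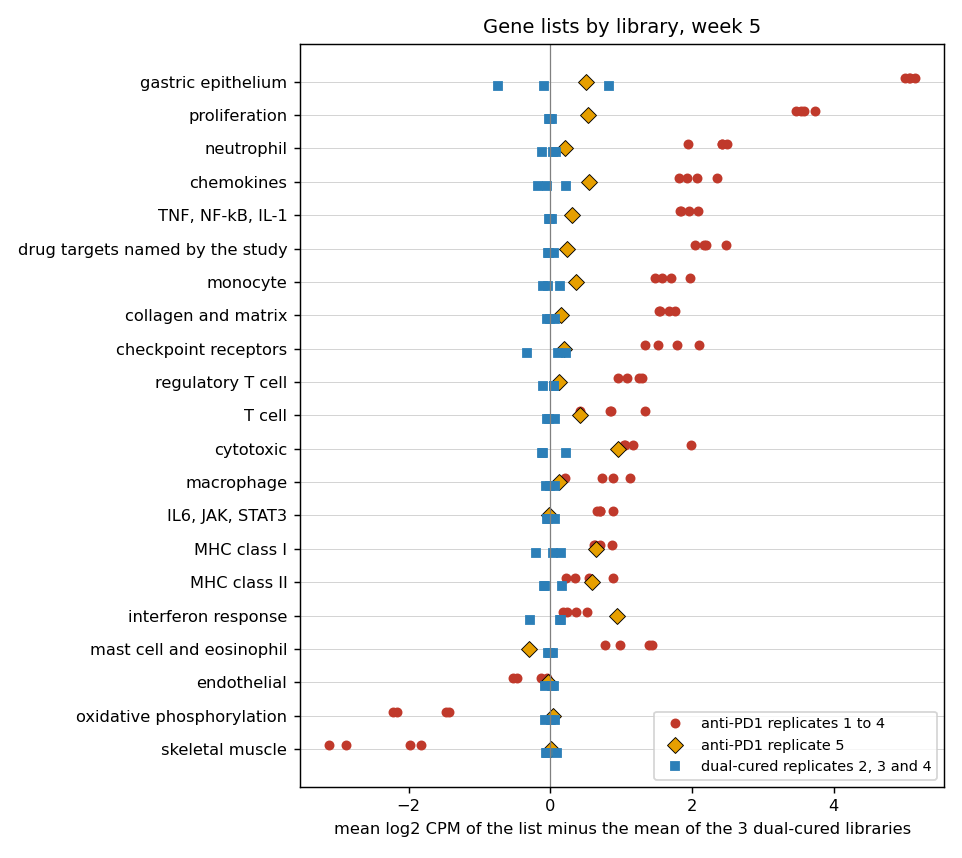
Mean log2 CPM of each gene list, per library, minus the mean of the 3 dual-cured libraries (x axis, log2), with 1 row per list. Circles are anti-PD1 replicates 1 to 4, the diamond is anti-PD1 replicate 5 and squares are dual-cured replicates 2, 3 and 4; the diamond sits beside the squares for gastric epithelium and skeletal muscle, beside the circles for MHC class I and cytotoxic genes, and beyond all other points for the interferon response.

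Testing all 5 anti-PD1 libraries against the 3 dual-cured ones answers what differed between the groups as the study labelled them. Of 15749 genes tested, 2968 were called by edgeR's quasi-likelihood test at a Benjamini-Hochberg adjusted p under 0.05 (18.8%): 2570 were higher in anti-PD1 tissue (16.3%) and 398 lower (2.53%). The smallest adjusted p was 0.0403, shared by many genes, and 7509 genes had an unadjusted p under 0.05. Calls depended on single libraries. Leaving out any one of anti-PD1 replicates 1 to 4 or any one dual-cured library left 0 calls in edgeR, with 4793 to 5729 genes at an unadjusted p under 0.05, whereas leaving out anti-PD1 replicate 5 gave 10746, which hold 2967 of the 2968.

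Without replicate 5, the 4 anti-PD1 libraries with tumor epithelium differed from the dual-cured ones in 10746 of 15704 genes (68.4%), 5738 higher (36.5%) and 5008 lower (31.9%), with adjusted p-values down to 2.72e-07 by the same test. Against such a background, a called gene is the rule and not the exception, and the counts of the gene lists were read beside these percentages. The library left out had no part in these calls, so its own level could be set beside each. A difference was counted as held in replicate 5 when its log2 CPM lay beyond all 3 dual-cured libraries on the side of the other 4 anti-PD1 libraries and at least 50% as far from the dual-cured mean. It was counted as held in part when it lay beyond them by less than that, and as not held when it lay within the dual-cured range or beyond it on the other side.

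Most differences needed the other 4 libraries. Of the 10746 genes called, 653 held in replicate 5 (6.08%), 2391 held in part (22.3%), 5275 lay within the dual-cured range (49.1%) and 2427 lay beyond it on the other side (22.6%). Among all 15704 genes tested, called or not, 11.4% met the same description of held, so the share of held calls does not stand above the background, and what follows describes which genes these were. Among higher genes, 98 of 934 held where the difference was less than log2 0.5 (10.5%) and 8 of 770 where it was log2 4 or more (1.04%), but the distance that counts as held grows with the difference: 21.3% and 33.9% of these genes lay above the dual-cured range in replicate 5. Among lower genes, 119 of 1032 held below log2 0.5 and 3 of 11 at log2 4 or more. Of the 653, 390 were higher in anti-PD1 tissue and 263 lower, beside 5.98% and 5.37% of all genes tested that met the description in each direction. With CPM taken on the raw library totals, 659 held, and only 225 of these were among the 653. They were 110 of the 5738 genes called higher and 549 of the 5008 called lower. That scaling moved the median gene by 0.644 (log2) towards higher values in the 4 anti-PD1 libraries.

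**Figure D2:**
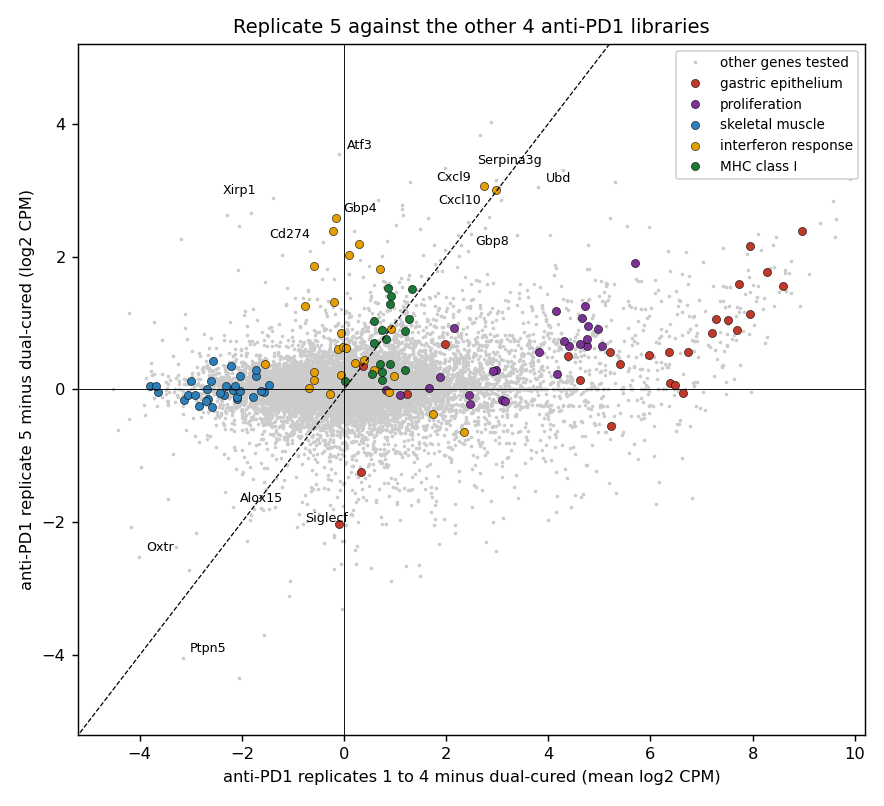
Difference from the dual-cured mean in log2 CPM of the mean of anti-PD1 replicates 1 to 4 (x axis) and of anti-PD1 replicate 5 (y axis) for the genes tested, with 5 gene lists in color; the dashed line marks equal differences. Gastric epithelium and proliferation genes lie far to the right and mostly well below the dashed line, skeletal muscle genes lie to the left near 0 on the y axis, MHC class I genes lie on both sides of the dashed line, with Cxcl9 and Cxcl10 close to it, and several interferon response genes lie high on the y axis near 0 on the x axis.

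The differences that needed the other 4 libraries were first those of the tumor itself. Of the gastric epithelial list, 23 of 26 tested genes rose without replicate 5, 7 held in part in it, Cldn18 and Tff2 among them, and 0 held. Cldn18, a gastric tight junction protein, was at 35.6, 44.9, 47.4 and 41.2 CPM in anti-PD1 replicates 1 to 4, at 0.688 in replicate 5 and at 0.320, 0.0439 and 0.0431 in the dual-cured libraries. Its log2 fold change in the edgeR fit without replicate 5 was 8.25 ± 0.35 (SE, adjusted p = 6.4e-07). That library was left out for its lack of tumor epithelium. For epithelial genes this fit therefore describes the other 4 libraries and is no independent test of anti-PD1 tissue. Replicate 5 lay above the dual-cured range and far below the other 4. Tff2, a secreted trefoil peptide of gastric mucus, was at 9.66 to 20.2 CPM in the 4 libraries and at 3 counts or fewer in each dual-cured library, a difference of at least 120-fold over a floor of 3 counts per library. Tff1, another trefoil peptide, was at or below 0.204 CPM in all 8 libraries and was not tested.

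Among genes with at least 2 CPM in the higher group, the 10 largest fitted increases belonged to genes at or near 0 counts in the dual-cured libraries. There a fitted fold change depends on the prior count and only a bound can be given. These genes therefore cannot be ranked against others such as Tff2. Ttr, the carrier of thyroid hormone, was at 8.25, 7.71, 8.83 and 7.15 CPM in anti-PD1 replicates 1 to 4, at 0.0459 in replicate 5 and at 0 in the dual-cured libraries (at least 60.2-fold higher over the floor). Vstm2l, Guca2b (uroguanylin, a gut peptide), Cwh43, Mcpt1 (a mast cell protease of mucosa), Lincenc1, Cxcl3, Pyy (a gut hormone), Cyp2b10 and Wnt7a completed the 10, with bounds from 37.4 to 59.9-fold. In replicate 5, the last 7 of these had no count, and Vstm2l and Guca2b were at 0.0459 and 0.138 CPM.

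Genes of cell division showed the same pattern. All 25 genes of the proliferation list rose without replicate 5, 16 held in part and 0 held. Top2a, the topoisomerase of dividing cells, was at 62.2, 68.2, 79.7 and 72.7 CPM in the 4 libraries, 4.31 in replicate 5 and 2.19, 2.90 and 2.54 in the dual-cured ones (log2 fold change 4.78 ± 0.14, adjusted p = 2.72e-07). Mki67, a marker of cycling cells, showed the same order, with 52.1 to 64.9, 4.36 and 2.24 to 3.33 CPM. Replicate 5 was above the dual-cured range for both genes and far below the other anti-PD1 libraries.

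Matrix and inflammatory genes followed the same order. Of 23 collagen and matrix genes, 19 rose without replicate 5, 13 held in part and 0 held; Col1a1, the main fibrillar collagen, was at 2532 to 3303 CPM in the 4 libraries, 1643 in replicate 5 and 1100 to 1279 in the dual-cured ones. Spp1 (osteopontin) was at 379.1 to 529.7 CPM in the 4 libraries and at 9.45 in replicate 5, inside the dual-cured range of 5.83 to 16.1. Of 22 genes of TNF, NF-kB and IL-1 signalling, 19 rose, 14 held in part and 1 held, Rel, a subunit of NF-kB. Il1b was at 4.90, 3.94, 9.02 and 10.4 CPM in the 4 libraries, 1.24 in replicate 5 and 0.137, 0.351 and 0.517 in the dual-cured ones (log2 fold change 4.35 ± 0.52, adjusted p = 8.82e-05). Il1rn, the IL-1 receptor antagonist, was at 48.5 to 57.8 CPM in the 4 libraries against 1.70 in replicate 5 and 0.965 to 1.69 in the dual-cured ones.

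Neutrophil genes also needed the 4 libraries: 11 of 13 rose, and 1 held, Clec4e, a pattern receptor of myeloid cells. S100a8, a calcium-binding protein that neutrophils store, was at 9.94, 16.3, 20.6 and 15.2 CPM in the 4 libraries, 0.505 in replicate 5 and 0, 0.351 and 0.689 in the dual-cured ones. Cxcl5, which draws neutrophils, was at 87.0 to 118.6 CPM in the 4 libraries, 0.688 in replicate 5 and 0.0439 to 0.686 in the dual-cured ones. Of the drug targets of the study, the 23 that it names in its enriched clusters were counted, which are a part of its targets. All 23 rose without replicate 5, and 0 held, 12 of them lying within the dual-cured range; the study chose these genes on these samples, so their direction is not independent evidence. Erbb2, the HER2 receptor, was at 58.3 to 84.0 CPM in the 4 libraries, 11.7 in replicate 5 and 10.0 to 12.6 in the dual-cured ones.

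The lower genes included those of muscle and its mitochondria. All 30 skeletal muscle genes and all 20 oxidative phosphorylation genes fell without replicate 5, and 0 of either list held. Myh2, a myosin heavy chain of fast oxidative fibers, was at 634.1, 206.9, 226.3 and 1024 CPM in anti-PD1 replicates 1 to 4, 5533 in replicate 5 and 5654, 5327 and 5112 in the dual-cured libraries (log2 fold change -3.38 ± 0.54, adjusted p = 0.000515). Of these 30 muscle genes, 20 lay within the dual-cured range in replicate 5. The 8 largest decreases that did not hold were Slc22a2, Gm13490, B230312C02Rik, Agbl1, Prss55, Ostn (a peptide secreted by muscle), Igsf1 and Dok5, and replicate 5 was within or above the dual-cured range for each.

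**Figure D3:**
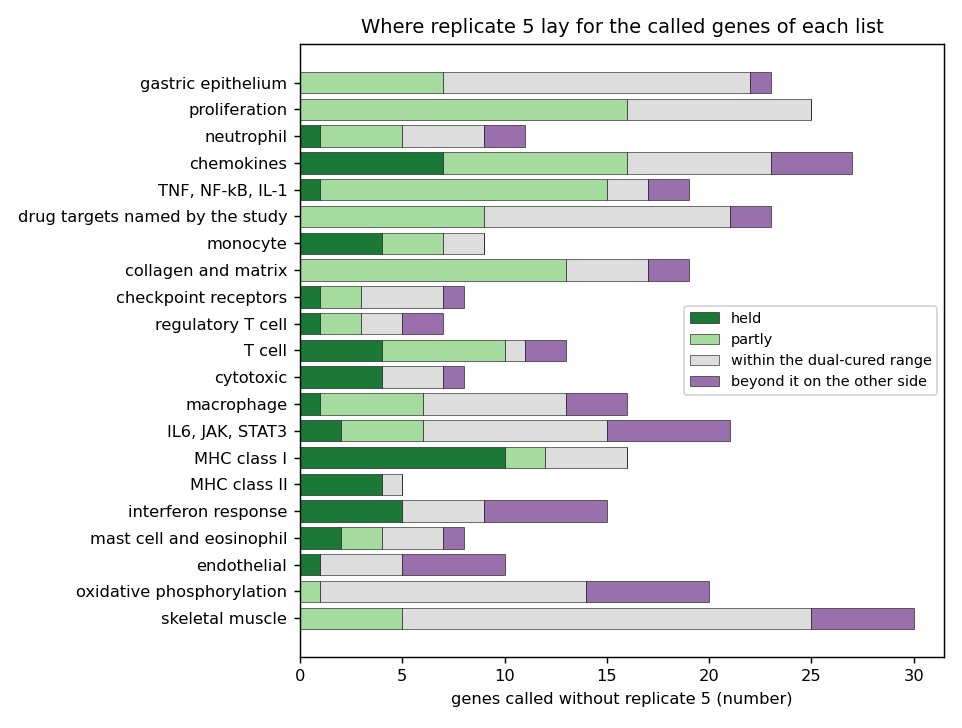
Number of genes of each list called without anti-PD1 replicate 5 (bar length, x axis), divided by where replicate 5 lay: held, held in part, within the dual-cured range, or beyond it on the other side. Held genes make up 10 of the 16 called MHC class I genes and 0 of the called genes in the gastric epithelium, proliferation, collagen, drug target, oxidative phosphorylation and skeletal muscle lists.

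The differences that held in replicate 5 were ranked among genes with at least 2 CPM in the higher group. The largest among the higher genes included those of the chemokines Cxcl9 and Cxcl10. Cxcl10 (chr5:92346638-92348889, mm10) was at 6.24, 8.72, 12.7 and 7.12 CPM in anti-PD1 replicates 1 to 4, 8.58 in replicate 5 and 0.869, 1.18 and 0.990 in the dual-cured libraries. Cxcl9, its neighbor on the chromosome (chr5:92321347-92328079), was at 13.5, 21.9, 31.7 and 13.8 CPM, then 23.8 in replicate 5 and 4.16, 1.97 and 2.67 in the dual-cured ones. For both chemokines all 5 anti-PD1 libraries were above all 3 dual-cured ones, and replicate 5 lay among the other 4. The log2 fold changes without replicate 5 were 3.08 ± 0.30 for Cxcl10 (adjusted p = 3.03e-05) and 2.77 ± 0.38 for Cxcl9 (adjusted p = 0.000211). The 5 untreated libraries of 5wk held 10.3 to 20.8 CPM of Cxcl10 and 22.1 to 56.3 CPM of Cxcl9, on a scale set over all libraries of that day, so the dual-cured libraries were the low ones.

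The other 6 of the 8 largest held increases were H2-M2 and Ubd, both genes of the MHC region of chromosome 17, Mefv (pyrin), Mmp12 (a macrophage elastase), Serpina3g (a protease inhibitor) and Fcgr4 (an activating Fc receptor of myeloid cells). Ubd, a ubiquitin-like protein, was at 2.39, 3.39, 6.08 and 2.88 CPM in anti-PD1 replicates 1 to 4, 2.02 in replicate 5 and 0.366, 0.0439 and 0.258 in the dual-cured libraries. Serpina3g was at 4.31, 7.27, 8.12 and 5.03 CPM, then 6.79 in replicate 5, and 1.46, 0.746 and 0.301 in the dual-cured ones. Mmp12 was at 2.39 to 8.83 CPM in the 4 libraries and 4.91 in replicate 5, against 0.229 to 1.10. All 8 were also called with replicate 5 in the fit, which follows in part from their choice as genes that held in it. On raw totals, Mefv and Fcgr4 held in part only. With the muscle list's score as a covariate in the edgeR fit without replicate 5, 1 of the 8 kept its call (H2-M2). Of all 10746 calls, 2362 were also called in that fit. The log2 fold change became 1.61 for Cxcl10 (adjusted p = 0.0857) and 0.80 for Cxcl9 (adjusted p = 0.515). In that fit the score separates the same libraries as the groups do. With the covariate and all 8 libraries, the log2 fold changes were 2.86 for Cxcl10 and 2.73 for Cxcl9, and 0 genes were called.

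Of the genes of antigen presentation on MHC class I, most held on the TMM scale. Without replicate 5, 16 of 17 tested genes rose, and 10 of these 16 held in replicate 5 (B2m, H2-D1, H2-K1, H2-Q4, H2-T23, Nlrc5, Psmb8, Psmb9, Tap1 and Tap2), where 6.8% of all genes called higher held. On raw totals, 8 of the 10 held, H2-D1 and Psmb8 in part only, and replicate 5 was above all 7 other libraries for 0 of the 17 genes, against 6 on the TMM scale. The list took 0.361 to 0.483% of the counts in the 4 libraries, 0.231% in replicate 5 and 0.121 to 0.153% in the dual-cured ones. H2-K1, a class I heavy chain, was at 764.1, 838.4, 1032 and 853.6 CPM in anti-PD1 replicates 1 to 4, 753.5 in replicate 5 and 406.8, 296.6 and 386.6 in the dual-cured libraries (log2 fold change 1.25 ± 0.16, adjusted p = 0.000157). B2m, the light chain, was at 438.5 to 525.5 CPM in the 4 libraries, 652.6 in replicate 5 and 278.3 to 362.4 in the dual-cured ones. Nlrc5, the transactivator of class I genes, was at 22.6 to 44.0, 38.1 and 12.3 to 15.6 CPM. The chaperones Calr and Pdia3, which serve many other proteins, were among the 6 that did not hold in full. With the muscle covariate in the edgeR fit without replicate 5, H2-K1 was higher by log2 0.88 and no longer called (adjusted p = 0.17). With the covariate and all 8 libraries, it was higher by log2 1.03, also not called. Class I heavy chain genes are near copies of each other, so their reads may have been split in the counting.

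Class II and lymphocyte genes held for some members. Of 11 class II genes, 5 rose without replicate 5, near the 36.5% of all genes tested that did so. Of these 5, 4 held (1 on raw totals, Ciita, the transactivator of class II genes), where 6.8% of all genes called higher held. Among the 4 was Cd74, the invariant chain, at 727.1, 755.3, 1178 and 913.2 CPM in the 4 libraries, 869.2 in replicate 5 and 633.8, 598.7 and 631.8 in the dual-cured ones (edgeR adjusted p = 0.0342). The class II chain genes H2-Aa, H2-Ab1 and H2-Eb1 did not pass the test, with adjusted p-values of 0.298, 0.477 and 0.0851. They stood at 330.5, 349.7 and 348.7 CPM in replicate 5, where each met the description of held, also on raw totals. Of 20 T cell genes, 11 rose, of which 4 held (Cd3d, Cd3e, Icos and Sh2d2a) and 6 held in part. On raw totals, 2 of the 4 held, Cd3e and Icos. Cd2 and Cd28 fell, and replicate 5 lay above the dual-cured range for both. Cd3e, a chain of the T cell receptor complex, was at 1.78, 2.01, 2.72 and 1.66 CPM in the 4 libraries, 1.65 in replicate 5 and 0.411, 0.614 and 1.46 in the dual-cured ones. These are low levels. Cd8a was at 1.98 to 5.24 CPM in the 4 libraries, 1.51 in replicate 5 and 1.05 to 2.74 in the dual-cured ones and did not pass the test (adjusted p = 0.0773).

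Of 11 cytotoxic genes tested, 7 rose and 4 of these held (Ccl5, Eomes, Gzma and Gzmb), also on raw totals. The other 3, Ctsw, Gzmc and Klrd1, lay within the dual-cured range in replicate 5. Klrk1 fell, and replicate 5 lay above the dual-cured range for it. Gzmb, a granzyme of killer cells, was at 0.933, 0.798, 0.679 and 0.697 CPM in the 4 libraries, 0.734 in replicate 5 and 0.457, 0.395 and 0.258 in the dual-cured ones (log2 fold change 1.05 ± 0.32, adjusted p = 0.0169). Gzma, another granzyme, was at 0.465 to 1.22, 1.01 and 0.0457 to 0.307 CPM, and Ccl5, a chemokine that T cells secrete, at 3.88 to 6.03, 5.46 and 1.05 to 2.47 CPM. The inhibitory receptors gave other values. Pdcd1, which encodes PD1, was at 3.85, 2.72, 4.56 and 3.28 CPM in the 4 libraries, 0.367 in replicate 5 and 0.274, 0.132 and 0.258 in the dual-cured ones, and Havcr2 (TIM-3), Tigit and Ctla4 did not hold in full either, Ctla4 lying below the dual-cured range. Lag3 held on the TMM scale and in part on raw totals, at 3.49 CPM beside 4.28 to 5.15 in the other 4 and 2.24 to 2.98 in the dual-cured libraries. Foxp3, the factor of regulatory T cells, was at 1.37 to 3.00 CPM in the 4 libraries and 0.596 in replicate 5, just above the 0.0914 to 0.474 of the dual-cured ones.

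Of 13 monocyte genes, 9 rose and 4 held (Ccl2, Fcgr4, Ly6c2 and Ms4a4c; on raw totals 0 of the 4). Of 32 chemokine genes, 24 rose, of which 7 held (Ccl2, Ccl3, Ccl4, Ccl5, Ccl19, Cxcl9 and Cxcl10). On raw totals 4 of these held, without Ccl2, Ccl3 and Ccl19. Another 3 chemokine genes fell, Ccl11, Ccl24 and Cxcl12, and none of them held in full. Of 24 macrophage genes, 13 rose and 3 fell without replicate 5, and 1 held, Gpnmb. Arg1, an arginase, was at 17.0 to 37.0 CPM in the 4 libraries, 0.963 in replicate 5 and 1.55 to 2.19 in the dual-cured ones, and Cd14, a co-receptor for endotoxin, at 72.5 to 101.5, 13.9 and 11.0 to 13.4 CPM. Retnla, a secreted protein of alternatively activated macrophages, was lower, at 44.3 to 79.5 CPM in the 4 libraries, 383.6 in replicate 5 and 283.1 to 378.3 in the dual-cured ones. Adgre1 (F4/80) was at 26.8 to 54.3 CPM in the 4 libraries, 46.1 in replicate 5 and 33.6 to 48.5 in the dual-cured ones, and Csf1r and Mrc1 (CD206) did not pass the test either (adjusted p = 0.742, 0.667 and 0.317 in this order). Cd68 rose, with 25.3 to 42.4 CPM in the 4 libraries, 27.6 in replicate 5 and 20.5 to 23.7 in the dual-cured ones (adjusted p = 0.00929).

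**Figure D4:**
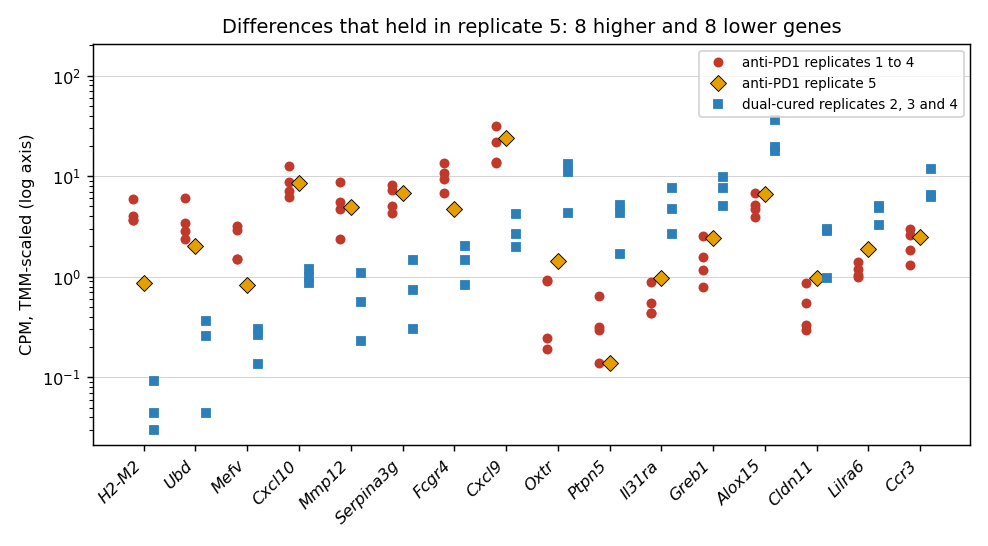
CPM (log axis) of the 8 genes with the largest held increases and the 8 with the largest held decreases, by library. Only genes with at least 2 CPM in the higher group were ranked. Circles are anti-PD1 replicates 1 to 4, diamonds anti-PD1 replicate 5 and squares the dual-cured libraries, and a value of 0 is drawn at 0.03. The diamonds lie above the squares for the 8 genes on the left and below them for the 8 on the right, where Cldn11 is at 0.963 in replicate 5 and 0.965 in the lowest dual-cured library.

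The largest differences that held among the lower genes included that of Oxtr. Oxtr, the oxytocin receptor (chr6:112473683-112489943), was at 0.933, 0.193, 0.244 and 0.901 CPM in anti-PD1 replicates 1 to 4, 1.42 in replicate 5 and 13.1, 4.26 and 10.9 in the dual-cured libraries (log2 fold change -4.08 ± 0.56, adjusted p = 0.000204). Ptpn5, a tyrosine phosphatase, was at 0.641, 0.138, 0.299 and 0.320 CPM, then 0.138 in replicate 5, and 5.12, 1.67 and 4.31 in the dual-cured ones. Greb1, a gene known for its induction by estrogen, was at 0.787 to 2.54 CPM in the 4 libraries, 2.43 in replicate 5 and 5.00 to 9.90 in the dual-cured ones. For these 3 genes no anti-PD1 library reached a dual-cured one, and the lowest dual-cured library was replicate 3. Pgr, the progesterone receptor, followed the same order but held in part only, with 1.15 CPM in replicate 5 beside 0.0543 to 0.798 in the other 4 and 2.11 to 8.31 in the dual-cured libraries. Akr1c18, an enzyme that inactivates progesterone, was also lower with all 8 libraries in the fit (adjusted p = 0.0419), at 6.47 CPM in replicate 5 and 10.8 to 15.4 in the dual-cured ones. The untreated libraries held at most 1.46 CPM of Oxtr and 0.333 CPM of Pgr, less than any dual-cured library, but 0.996 to 5.88 CPM of Greb1, a range that overlaps the dual-cured one. With the muscle covariate in the edgeR fit without replicate 5, Oxtr turned to 0.48 (adjusted p = 0.842), and Ptpn5 and Greb1 were no longer called. With the covariate and all 8 libraries, the log2 fold changes were -2.25 for Oxtr, -3.475 for Ptpn5 and -1.52 for Greb1, none of them called.

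Alox15 and Ccr3, which eosinophils are known to express, were among the 8 largest held decreases. Alox15, a lipoxygenase, was at 3.96, 4.76, 6.76 and 5.20 CPM in anti-PD1 replicates 1 to 4, 6.70 in replicate 5 and 19.3, 36.1 and 17.7 in the dual-cured libraries (log2 fold change -2.25 ± 0.27, adjusted p = 9.77e-05). Ccr3, the eotaxin receptor, was at 1.31, 1.84, 2.96 and 2.59 CPM, then 2.48 in replicate 5, and 6.22, 11.8 and 6.46 in the dual-cured ones. For both genes every anti-PD1 library was below every dual-cured one, and replicate 3 was the highest of the dual-cured libraries. Siglecf, a surface lectin of eosinophils that was looked up for this pattern, also fell (log2 fold change -0.92 ± 0.32, adjusted p = 0.0315) and was at 1.15 CPM in replicate 5 and 3.92 to 7.19 in the dual-cured ones. Ear2, a ribonuclease of eosinophils, fell (log2 fold change -1.15 ± 0.46, adjusted p = 0.0492) but did not hold, at 0.321 CPM in replicate 5 beside 0.307 to 0.869 in the dual-cured ones. Epx and Prg2, which encode granule proteins of eosinophils, were at or below 0.263 CPM in all 8 libraries and were not tested. Il31ra, Cldn11 and Lilra6 completed the 8 largest held decreases; Cldn11 held only by a margin of 0.963 against 0.965 CPM. With the muscle covariate in the edgeR fit without replicate 5, 2 of the 8 held decreases kept their call, beside 2362 of all 10746 calls. The 2 were Alox15 (log2 fold change -3.05, adjusted p = 0.0405) and Il31ra, while the call of Ccr3 was lost (adjusted p = 0.109). With the covariate and all 8 libraries, the log2 fold changes were -2.04 for Alox15, -2.73 for Il31ra and -1.87 for Ccr3, none of them called.

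Replicate 5 also stood apart from all 7 other libraries. Of the 28 interferon response genes, 9 rose and 6 fell without replicate 5, where 36.5% of all genes tested rose and 31.9% fell. Of these called genes, 5 held (Cxcl9, Cxcl10, Gbp2, Irf1 and Socs1, the last in part on raw totals). Yet replicate 5 was above all 3 dual-cured libraries for 21 of the 28, where it was so for 26.2% of all genes, and above all 7 other libraries for 16 of the 28, where it was so for 12.1% of all genes; on raw totals the latter count was 8. As 1 library against 7, these counts carry no test.

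Next to the chemokines, guanylate-binding proteins and immunity-related GTPases lay farthest from the dual-cured mean. Gbp4 was at 115.5 CPM in replicate 5, 14.0 to 20.1 in the other 4 anti-PD1 libraries and 15.8 to 22.9 in the dual-cured ones. Iigp1 was at 144.8 CPM in replicate 5, with 20.2 to 27.9 and 17.1 to 36.0 in the other groups, and Igtp (chr11:58199556-58207591) at 124.9 CPM, with 19.8 to 28.4 and 25.5 to 44.5. Without replicate 5, Gbp4 and Iigp1 did not pass the test (adjusted p = 0.374 and 0.289), and Igtp was lower (adjusted p = 0.0157). Of the genes known for antiviral defense, Rsad2 was at 17.7 CPM in replicate 5, Ifit3 at 30.96, Ifit2 at 17.4, Ifit1 at 11.7, Usp18 at 8.07 and Ifi44 at 4.86. Each was above all 7 other libraries, though the highest dual-cured library was at 11.4 CPM for Ifit1 and 8.01 for Usp18. On the scale of all day 35 libraries, the highest untreated library was at 12.6 CPM for Ifit1, 17.4 for Ifit2, 9.24 for Usp18 and 7.17 for Ifi44. For Rsad2 and Ifit3 it was at 6.73 and 19.8 CPM. Isg15 was at 5.87 CPM in replicate 5 and Mx1 at 4.59, and these as well as Mx2, Oas1a and Oas2 lay within the range of the other 7 libraries. Oasl1 was at 3.49 CPM, below all 7. Gbp4 and Gbp8 overlap on chromosome 5, and the Gbp genes are close relatives, so their counts may share reads.

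**Figure D5:**
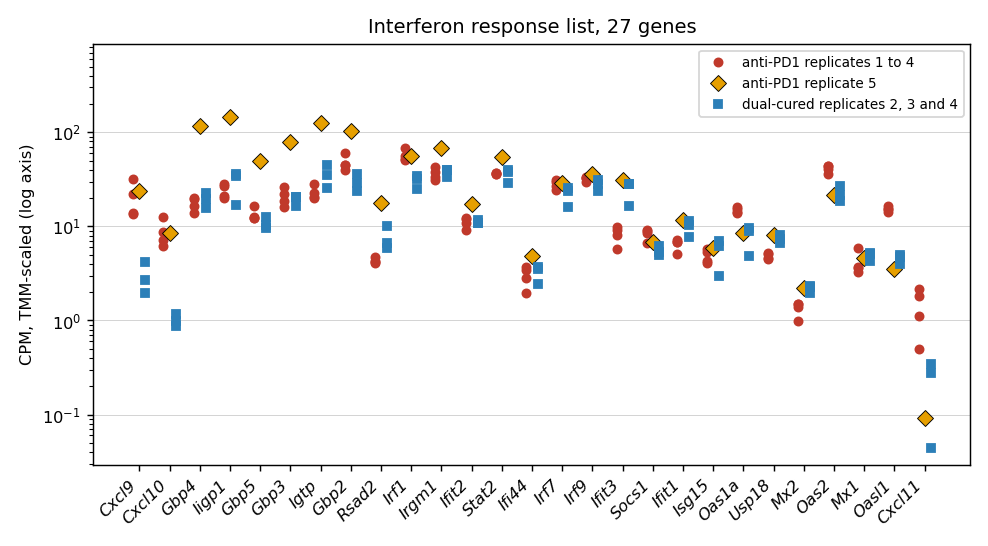
CPM (log axis) of 27 of the 28 interferon response genes by library, ordered by the distance of replicate 5 from the dual-cured mean: circles are anti-PD1 replicates 1 to 4, diamonds anti-PD1 replicate 5 and squares the dual-cured libraries. The diamonds of Gbp4, Iigp1, Gbp5, Gbp3, Igtp and Gbp2 lie above every other library, while Cxcl9 and Cxcl10 of replicate 5 lie among the circles.

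Promoters of some genes from both patterns are shown as examples, with 2 short motifs of interferon signalling marked where present. The first is GAAANNGAAA, part of the element bound by the IRF family (its reverse complement is TTTCNNTTTC). The second is the palindrome TTCNNNGAA, bound by STAT dimers. The sequences are the 250 bases before the start in the RefSeq annotation of GRCm38.p6, on the strand of the gene, 5′ to 3′, with matches to either motif in capitals. Of 32851 promoters in that table, 2.98% hold the first motif on either strand and 7.02% the second. The table lacks over 20% of the interferon response list, so no share over the list is given.
Cxcl10 (chr5:92348890-92349139, minus strand): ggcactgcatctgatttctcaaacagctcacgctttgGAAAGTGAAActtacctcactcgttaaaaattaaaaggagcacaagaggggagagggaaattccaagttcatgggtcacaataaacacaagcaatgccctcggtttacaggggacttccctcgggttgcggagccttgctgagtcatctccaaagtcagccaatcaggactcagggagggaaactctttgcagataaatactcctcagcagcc
Cxcl9 (chr5:92328080-92328329, minus strand): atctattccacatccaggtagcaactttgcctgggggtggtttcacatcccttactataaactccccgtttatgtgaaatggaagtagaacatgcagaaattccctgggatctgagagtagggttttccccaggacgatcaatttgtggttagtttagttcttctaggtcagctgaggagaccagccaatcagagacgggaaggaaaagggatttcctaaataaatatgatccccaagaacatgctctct
Igtp (chr11:58199306-58199555, plus strand): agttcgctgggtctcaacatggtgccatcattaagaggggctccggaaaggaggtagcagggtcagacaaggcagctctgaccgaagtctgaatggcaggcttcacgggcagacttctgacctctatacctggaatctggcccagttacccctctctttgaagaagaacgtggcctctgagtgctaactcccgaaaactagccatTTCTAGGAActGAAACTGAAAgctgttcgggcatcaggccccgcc
Gbp5 (chr3:142496684-142496933, plus strand): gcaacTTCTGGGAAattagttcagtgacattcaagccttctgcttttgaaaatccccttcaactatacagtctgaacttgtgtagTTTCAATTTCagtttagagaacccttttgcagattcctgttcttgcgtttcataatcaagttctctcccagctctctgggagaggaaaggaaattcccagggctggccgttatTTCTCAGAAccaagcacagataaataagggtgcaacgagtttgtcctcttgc
Gbp3 (chr3:142559794-142560043, plus strand): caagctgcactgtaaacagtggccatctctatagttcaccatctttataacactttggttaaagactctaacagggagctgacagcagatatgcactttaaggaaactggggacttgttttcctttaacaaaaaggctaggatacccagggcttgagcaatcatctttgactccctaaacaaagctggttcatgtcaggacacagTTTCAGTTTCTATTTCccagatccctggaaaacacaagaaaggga
Cxcl10 has 1 match, which begins 213 bases before the start. Igtp has a match to each motif, at 45 and 34 bases before the start, Gbp5 has 3 matches and Gbp3 has 2 overlapping ones at 45 and 39 bases; the table gives Gbp3 another promoter (chr3:142560106-142560355), which holds neither motif. The promoter of Cxcl9 holds neither motif in this window. Among the other genes looked up, Cd274, Ubd, Irf7, Irf9, Oasl1 and Ifi44 also hold neither. Gbp2, Irgm1, Irf1, Isg15, Oas1a, Rsad2, Serpina3g, Socs1, Stat2, Ifit1, Ifit2 and Ifit3 hold a match in a promoter. The genes shown are therefore no measure of how common the motifs are. A match describes the letters of the window and was not tested against expression.

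Over all 15704 genes tested, 37 were at least 2-fold above all 7 other libraries in replicate 5 and 4 were at least 2-fold below. Of the 37, 6 belong to the interferon response list. Gbp2b, Gbp6, Gbp7, Gbp10 and Irgm2, relatives of genes in that list, are among the 37 without belonging to it. The genes named next were chosen after their values were seen. Cd274, which encodes PD-L1, the ligand of the receptor that the antibody blocks, was at 52.2 CPM in replicate 5, 6.32, 8.28, 9.83 and 9.50 in the other 4 anti-PD1 libraries and 11.4, 8.77 and 13.7 in the dual-cured ones. Atf3, a stress-induced transcription factor, was at 146.8 CPM against 10.4 to 13.0 and 11.8 to 13.1. Xirp1, an actin-binding protein of striated muscle, was at 1508 CPM against 66.4 to 94.0 and 176.2 to 228.2. Hspa1a, an inducible heat shock protein, was at 80.0 CPM against 3.94 to 6.51 and 16.4 to 30.9. The groups other than replicate 5 differed little or in the other direction for these genes: Xirp1 and Hspa1a were lower in the 4 anti-PD1 libraries than in the dual-cured ones (adjusted p = 2.88e-05 and 6.44e-05), while Cd274 and Atf3 did not pass the test (0.0807 and 0.438). Ankrd1, a muscle protein induced by stress, was the reverse case and held, at 104.4 CPM in replicate 5, 33.1 to 77.3 in the other 4 and 4.31 to 14.2 in the dual-cured ones. The 4 genes below all others were Car12, Lrfn4, Slc6a4 and Pcdhb20.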

How the data were processed

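RNA-seq was made from peritoneal tissue, 1 library per mouse, and the authors deposited raw counts per gene symbol (24421 genes), without normalization. The labels name STAR 2.7.0f, featureCounts 1.6.4 and mm10, while the methods of the study name another version of STAR and another counting tool; which made the table was not settled, and strand was not stated. The 8 libraries held 27477153 to 29551427 counts, so counting error is small beside the spread between mice except at a few counts. Groups came from the titles, and the members and lists were chosen with earlier results of these data known.

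From the counts, edgeR 4.0.16 in R 4.3.3 (TMM, filterByExpr, quasi-likelihood test, two-sided, Benjamini-Hochberg adjusted p under 0.05) was fitted with and without anti-PD1 replicate 5, only the groups compared entering. Standard errors belong to log2 fold changes. The look-up of replicate 5 used log2 CPM with a prior count of 2. Where no library of a group exceeded 3 counts of a gene, the fold is given as a bound, computed against 3 counts per library. Muscle shares were tested by an exact permutation test (scipy 1.17.1). P-values are set against the spread between the mice of a group, which without replicate 5 is that of the 4 anti-PD1 mice kept. The alternatives were DESeq2 1.42.0, limma 3.58.1 (voom), other scalings and filters, a replicate block, a muscle covariate, and leaving out each library. Same-numbered libraries did not deviate together (r = -0.07, -0.028 and -0.024), and no pair of libraries was a duplicate. Fits were tested on simulated data. Named genes were the 4 most abundant of each list and its defining markers, the 10 largest fitted changes without replicate 5, the 8 largest held and not held and the 8 largest of all libraries in each direction (at least 2 CPM in the higher group for all but the last), and drug targets and stained proteins of the study; other genes named were chosen after their values were seen. Gene positions are from GENCODE vM21, which matched 96.4% of symbols. A gene of the interferon response list is counted in it but not reported here.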

Additional observations from a re-analysis of the deposited data

Results flagged for a closer look

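Among the 5 anti-PD1 libraries, 1 library lay far from the rest (Dixon's ratio of its gap to the whole range, above 0.71) in 10 of 27 gene lists checked, and in 9 of the 10 it was replicate 5. Chance sets about 1 in 20 groups apart, but replicate 5 had been singled out for the absence of tumor epithelium, so the epithelial ratio describes that choice and the lists that move with the tumor are not independent of it. The ratios were 0.968 for gastric epithelium, 0.914 for proliferation, 0.863 for TNF, NF-kB and IL-1 signalling, 0.861 for collagen and matrix, 0.803 for proteases and their inhibitors, 0.799 for the drug targets of the study, 0.757 for both neutrophil genes and IL6, JAK and STAT3 signalling, and 0.71 for regulatory T cells. The list of the other library was the cytotoxic one, with a ratio of 0.795 for replicate 3, which was the highest. Of 117 genes named in the text, 45 set 1 anti-PD1 library apart in the same way, and in 42 of these it was replicate 5. Many of these genes were named for where replicate 5 lay, so the count follows in part from their choice and is a description. The cause was not tested.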

How the results depend on the processing

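With all 8 libraries, the 2968 calls became 5979 with DESeq2, 11603 with limma-voom and sample weights, 5861 with all day 35 libraries in the fit and 0 in edgeR with a covariate for muscle (949 at an unadjusted p under 0.05); leaving out 1 library gave from 0 to 10746. The fit with the replicate number as a block gave 9913 calls, and 9894 without replicate 5; the numbers do not pair the mice. Upper-quartile scaling, other filters and removal of the muscle list gave 2020 to 3046. Without replicate 5, the muscle covariate gave 2620 calls, of which 2362 were among the 10746. Leaving out 1 more library gave 9707 to 10705. Under that covariate the log2 fold changes of Cd68 (-0.41), Cdh5 (0.248), Cldn11 (0.468), Gm13490 (1.89), Ostn (0.918), Oxtr (0.481) and Prss55 (1.65) changed sign, none past the threshold; the covariate separates the same libraries as the groups do. The 653 held calls were 1607 at 25% of the distance and 271 at 75%. The difference in muscle share stayed between -16.3 and -11.7 percentage points when 1 library was left out, where 0.05 cannot be reached by the exact test. The cause of each change was not tested. Genes at a few counts in every library, such as Gzmb and Cd3e, are limited by depth, and replicate 5 is 1 library with no replicate of its own.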

Other observations

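Of 20 endothelial genes, 2 rose and 8 fell without replicate 5, where 36.5% of all genes tested rose and 31.9% fell. On the TMM scale, replicate 5 was above all 7 other libraries for 7 of the 20, where it was so for 12.1% of all genes. The count was 6 of 20 for fibroblast genes and 6 of 20 for oxidative phosphorylation genes (1 on raw totals). It was 16 of 28 for interferon response genes and 0 of 26 for gastric epithelial genes. Endothelial genes were not counted on raw totals. Cdh5 (VE-cadherin) was at 84.1, 62.1, 58.3 and 93.6 CPM in anti-PD1 replicates 1 to 4, 151.5 in replicate 5 and 125.8, 135.6 and 137.4 in the dual-cured libraries. Of 10 B cell and plasma cell genes, 2 rose, 1 fell and 7 were not called.

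Mast cell and eosinophil genes divided within 1 list. Of 12 tested, 6 rose without replicate 5, among them Mcpt1 and Kit, and 2 fell, Siglecf and Ear2. Of all genes tested, 36.5% rose and 31.9% fell. Replicate 5 was below all 7 other libraries for 4 of the 12, where it was so for 12.5% of all genes. The mean log2 CPM of this list was 1.16 to 1.83 in anti-PD1 replicates 1 to 4, 0.094 in replicate 5 and 0.364 to 0.425 in the dual-cured libraries.

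The serotonin transporter Slc6a4, chosen after its value was seen, was at 11.2, 24.4, 18.2 and 16.6 CPM in anti-PD1 replicates 1 to 4, 0.963 in replicate 5 and 2.61, 3.60 and 2.28 in the dual-cured libraries, so replicate 5 was below both groups.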
